A study of Mus musculus with 6 samples.

Results

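The transcription factor MYC and the genes that build ribosomes were followed in mouse natural killer (NK) cells as a set of 43 genes, out of 24343 genes listed in each library. The set was drawn up by name, with earlier results of these data known. It holds Myc itself, 40 genes of rRNA transcription, nucleolar structure, snoRNP and ribosomal subunit assembly, and Srm and Odc1, which make polyamines. Each of the 43 had a single entry with a successful estimate in every library, and all 43 passed the minimum mean of 1 FPKM (fragments scaled to transcript length and library size) that left 9831 genes in the test. The RNA came from splenic NK cells of female C57BL/6 mice, sequenced as 3 libraries after treatment with complexes of IL-15 (IL-15C) and 3 after complexes of IL-2 (IL-2C). The sort took cells that carry NK1.1 and NKp46 and lack CD3 and binding to the CD1d tetramer. The labels name neither dose, timing, the carrier protein of the complexes nor the ages of the mice, and they do not say whether a library held 1 mouse or a pool. No untreated library was analysed here, and every mouse had received one of the cytokines.

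Ribosomes are assembled in the nucleolus. RNA polymerase I transcribes the long rRNA precursor, small nucleolar RNPs (snoRNPs) modify and guide its cleavage, and separate sets of assembly factors turn the pieces into the small (40S) and large (60S) subunits. MYC raises the transcription of many of these genes and of the polyamine enzymes in growing cells, and activated lymphocytes enlarge this machinery before they divide. It binds DNA as a dimer with MAX at the E-box, whose canonical letters are CACGTG.

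Against the other libraries, IL-15C replicate 1 stood apart for these genes. The highest of the 6 values lay in that library for 38 of the 43 genes, against 25.0% of all tested genes. It lay in IL-15C replicates 2 and 3 for 0 of the 43 (6.99% and 4.36% of all tested genes), in IL-2C replicate 1 for 4 (33.8%), in IL-2C replicate 2 for 1 (19.5%) and in IL-2C replicate 3 for 0 (10.3%). Because the set was chosen with earlier results of these data known, these counts describe it and are no independent support. In FPKM as deposited, IL-15C replicates 2 and 3 were close to the IL-2C libraries, and the difference between the treatments rested largely on 1 library. Set against all tested genes, part of it remained without IL-15C replicate 1. The log2 change was then above 0 for 48.8% of the 43 genes, against 30.4% of all tested genes. The median log2 change of the 43 genes, IL-15C minus IL-2C on the log2(FPKM + 1) scale, was 0.08 with all 6 libraries and -0.003 without IL-15C replicate 1, beside -0.04 and -0.05 for all tested genes. By limma, 1 gene (Nob1, 2.33% of the set) was higher in IL-15C with an adjusted p under 0.05, 0 were lower and 42 did not pass, while 1.72% of all tested genes were called higher and 4.72% lower. At an unadjusted p under 0.05, 8 of the 43 were higher and 1 was lower, against 6.48% and 20.4% of all tested genes. Without IL-15C replicate 1, limma called 0 of the 43 in either direction, against 1.79% of all tested genes higher and 5.85% lower; at an unadjusted p under 0.05 the counts were 5 higher and 3 lower, against 5.19% and 22.2%.

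**Figure D1:**
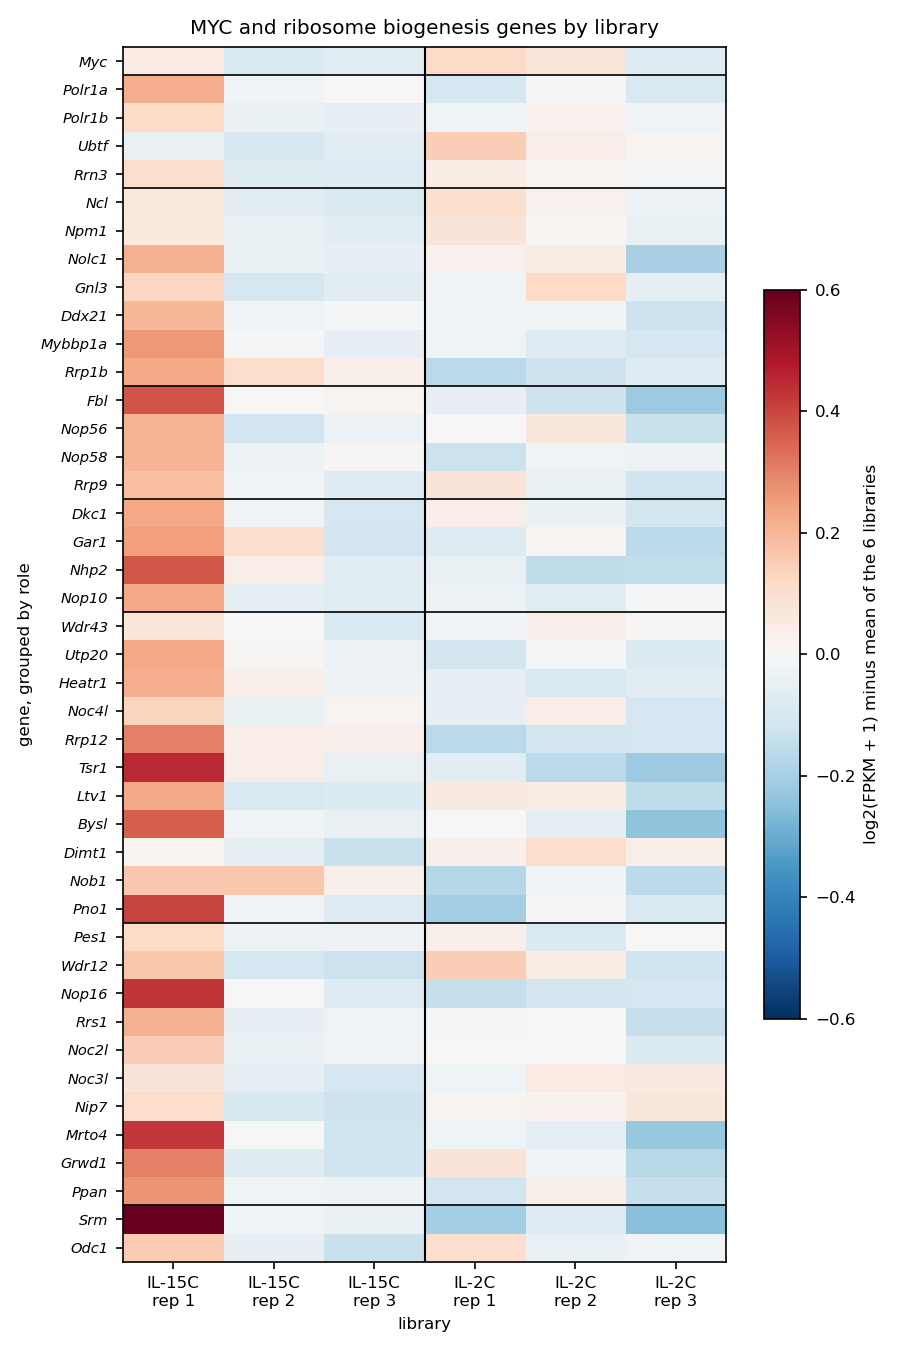
Each row is 1 of the 43 genes, grouped by role (Myc, RNA polymerase I, nucleolar proteins, box C/D, box H/ACA, 40S assembly, 60S assembly, polyamine enzymes), and each column is a library; colour gives log2(FPKM + 1) minus the gene's mean over the 6 libraries. The first column, IL-15C replicate 1, is the highest for 38 genes, while Myc, Ubtf, Ncl, Npm1 and Dimt1 peak in an IL-2C library.

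The same library had the highest sums of the erythroid and platelet, granulocyte and monocyte, and T cell marker lists. Its B cell sum lay within the IL-2C range. Its summed erythroid and platelet markers were 24.3 FPKM, while IL-15C replicates 2 and 3 had 3.06 and 4.01 FPKM and IL-2C libraries 5.04 to 6.24. All 9 listed genes were found, 2 with a mean of at least 1 FPKM, and Hbb-bs was near 0 in every library. Granulocyte and monocyte markers (12 of 12 found, 9 with a mean of at least 1 FPKM) summed to 376 FPKM there, while IL-15C replicates 2 and 3 had 307 and 333 FPKM and IL-2C libraries 258 to 292. Most of that sum was Itgax, at 235, 249 and 260 FPKM in IL-15C replicates 1 to 3 and 209, 197 and 204 FPKM in IL-2C replicates 1 to 3. Itgax was itself called higher in IL-15C (limma adjusted p = 0.0209). The other 11 genes, a sum chosen after the values were seen, came to 141, 57.6 and 72.6 FPKM in IL-15C and 83.2, 75.3 and 54.7 FPKM in IL-2C. In this sum IL-15C replicate 1 was the highest and the remaining libraries of the treatments overlapped. Of these 11, limma called only Retnlg higher in IL-15C (adjusted p = 0.0445). Retnlg had 2.61, 1.498 and 2.28 FPKM in IL-15C and 1.397, 0.976 and 0.923 FPKM in IL-2C, with no overlap between the treatments. Without IL-15C replicate 1 its log2 change was 0.46 and the limma call was lost (adjusted p = 0.0552). B cell and antigen-presenting cell markers (10 of 12 found, 6 at that level) summed to 42.7, 7.91 and 17.8 FPKM in IL-15C replicates 1 to 3 and to 15.5 to 66.8 in IL-2C. T cell markers (8 of 11 found, 4 at that level) summed to 87.7, 72.9 and 64.7 FPKM in IL-15C and to 66.3 to 71.8 in IL-2C, with Cd4, Cd8a and Cd8b1 at most 0.08 FPKM in any library. Most of the T cell sum in IL-15C replicate 1 was Cd3g (44.6 FPKM), Cd3d (22.3) and Cd28 (15.9), while Cd5 had 0.235. The 8 NK cell markers, all found, summed to 9995 to 10622 FPKM in IL-15C and 9325 to 10727 in IL-2C. The part of these differences in the pattern of the 43 genes was not tested. Read numbers implied by the deposited intervals were alike, at 23543141 to 24580391 fragments in IL-15C libraries and 23665058 to 27229145 in IL-2C libraries, with the lowest in IL-15C replicate 1. In such bulk samples a change in RNA per cell cannot be told apart from a change in the share of cells that express a gene.

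Promoter windows of GRCm38 from RefSeq, running from 250 bases before to 50 bases after each annotated start, were found for 37 of the 43 genes. Myc, Srm, Npm1, Fbl, Rrp12 and Rrs1 had no window, so their promoters were not searched. The letters CACGTG, which read the same on both strands, occurred in the windows of 9 of these 37 genes (24.3%), against 12.2% of 7565 other tested genes and 8.09% of all 27025 genes with a window. In 8 of the 9 the match lay within the first bases after the start, beginning at position 3 to 41. The sites are shown because they carry the letters that MYC and MAX bind; the shares were not tested. Each is a run of 30 bases on the gene's strand, 5′ to 3′, with the E-box letters in capitals:
Tsr1, chr11:74898092-74898121, plus strand: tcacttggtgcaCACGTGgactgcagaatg
Pno1, chr11:17211540-17211569, minus strand: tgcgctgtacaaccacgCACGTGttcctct
Utp20, chr10:88826765-88826794, minus strand: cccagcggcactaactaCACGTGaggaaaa
Ltv1, chr10:13193092-13193121, minus strand: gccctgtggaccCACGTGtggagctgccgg
Wdr43, chr17:71616220-71616249, plus strand: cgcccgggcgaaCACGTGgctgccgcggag
Grwd1, chr7:45830740-45830769, minus strand: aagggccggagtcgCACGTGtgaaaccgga
Pes1, chr11:3963965-3963994, plus strand: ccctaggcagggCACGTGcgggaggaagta
Mybbp1a, chr11:72441347-72441376, plus strand: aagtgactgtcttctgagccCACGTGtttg
Rrn3, chr16:13780639-13780668, plus strand: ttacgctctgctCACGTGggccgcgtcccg

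Rrn3 held a second match farther upstream, 215 bases before the start. The 9 genes with a match belong to 4 role groups, and 5 of them are 40S assembly factors. In IL-15C replicate 1 the level of these 9 was 1.09 to 1.48 times the mean of the other IL-15C libraries, with a median of 1.27, and in the 28 genes with a window and no match it was 1.03 to 1.55 times, with a median of 1.19. The ranges overlapped nearly throughout. The related letters CACGCG, searched on both strands, occurred for 14 of the 37 genes (37.8%), against 20.9% of other tested genes. GGGCGG, the core of the GC box bound by SP1, occurred for 67.6% of them and 70.2% of other tested genes, TATAAA for 8.11% and 7.77%, and CCAAT for 32.4% and 42.8%. A match in a window is a description of letters and shows no binding.

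Myc itself differed little between the libraries. It had 12.4, 11.1 and 11.3 FPKM in IL-15C replicates 1 to 3, against 12.9, 12.5 and 11.2 FPKM in IL-2C replicates 1 to 3. The groups overlapped, and the highest value was in IL-2C replicate 1. It averaged 11.6 ± 0.676 FPKM in the IL-15C libraries and 12.2 ± 0.899 FPKM in the IL-2C libraries (SD, n = 3 each), a log2 change of -0.07 ± 0.06 (SE) with a limma adjusted p of 0.482 and an exact two-sided permutation p of 0.3. Omitting 1 library at a time gave adjusted p-values of 0.193 to 0.799. The gene lies on chromosome 15 at 61985341 to 61990361 (mm10). These levels rested on 965 to 1152 implied fragments per library.

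Of the 11 tested genes of the MYC network, namely MAX and its other partners and regulators (14 listed), limma called 0 higher and 1 lower, and 1 and 3 had an unadjusted p under 0.05. Among all tested genes 1.72% were called higher and 4.72% lower, and 6.48% and 20.4% had an unadjusted p under 0.05. The same shares stand beside the counts of the other lists below. The called gene, Mxi1, encodes a MAX partner that opposes MYC. It had 2.45, 2.95 and 3.04 FPKM in IL-15C and 4.13, 3.83 and 3.55 FPKM in IL-2C, with no overlap between the treatments. The log2 change of Mxi1 was -0.34 ± 0.08 (limma adjusted p = 0.0353), and -0.27 without IL-15C replicate 1 (adjusted p = 0.0403). Mxd4, another such antagonist, had a log2 change of -0.11 (adjusted p = 0.110) and Mlxip, a partner of MLX, 0.12 (adjusted p = 0.118).

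The 4 genes of RNA polymerase I and its initiation factors in the set showed no common direction. Ubtf, which binds rDNA and opens it for the polymerase, had 36.5, 35.2 and 35.9 FPKM in IL-15C and 41.9, 38.8 and 38.1 FPKM in IL-2C. All 3 IL-15C values lay below all 3 IL-2C values, which held for 25.1% of tested genes and for 2 of the 43 (Ubtf and Dimt1). The log2 change of Ubtf was -0.14 ± 0.05 (limma adjusted p = 0.103), and -0.15 ± 0.05 without IL-15C replicate 1, so it was as large without that library. Ubtf also had the smallest excess of the 43 genes in IL-15C replicate 1, 1.03 times the mean of the other IL-15C libraries. Polr1a, the largest subunit of the polymerase, had 4.59, 3.74 and 3.79 FPKM in IL-15C and 3.48, 3.78 and 3.503 FPKM in IL-2C, a log2 change of 0.13 ± 0.07 (adjusted p = 0.274). Its high value came from IL-15C replicate 1, and the other libraries overlapped. Polr1b, the second largest subunit, had a log2 change of 0.02 and Rrn3, which recruits the polymerase to the promoter, one of -0.03; without IL-15C replicate 1 these were -0.04 and -0.09. Of 16 other genes of the polymerase and its factors, limma called 0 in either direction, with 0 higher and 2 lower at an unadjusted p under 0.05. Their highest value lay in IL-15C replicate 1 for 5 of 16, against 25.0% of all tested genes. The log2 change of these 16 was above 0 for 2, against 35.3% of all tested genes. Without IL-15C replicate 1 it was above 0 for 1, against 30.4%.

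**Figure D2:**
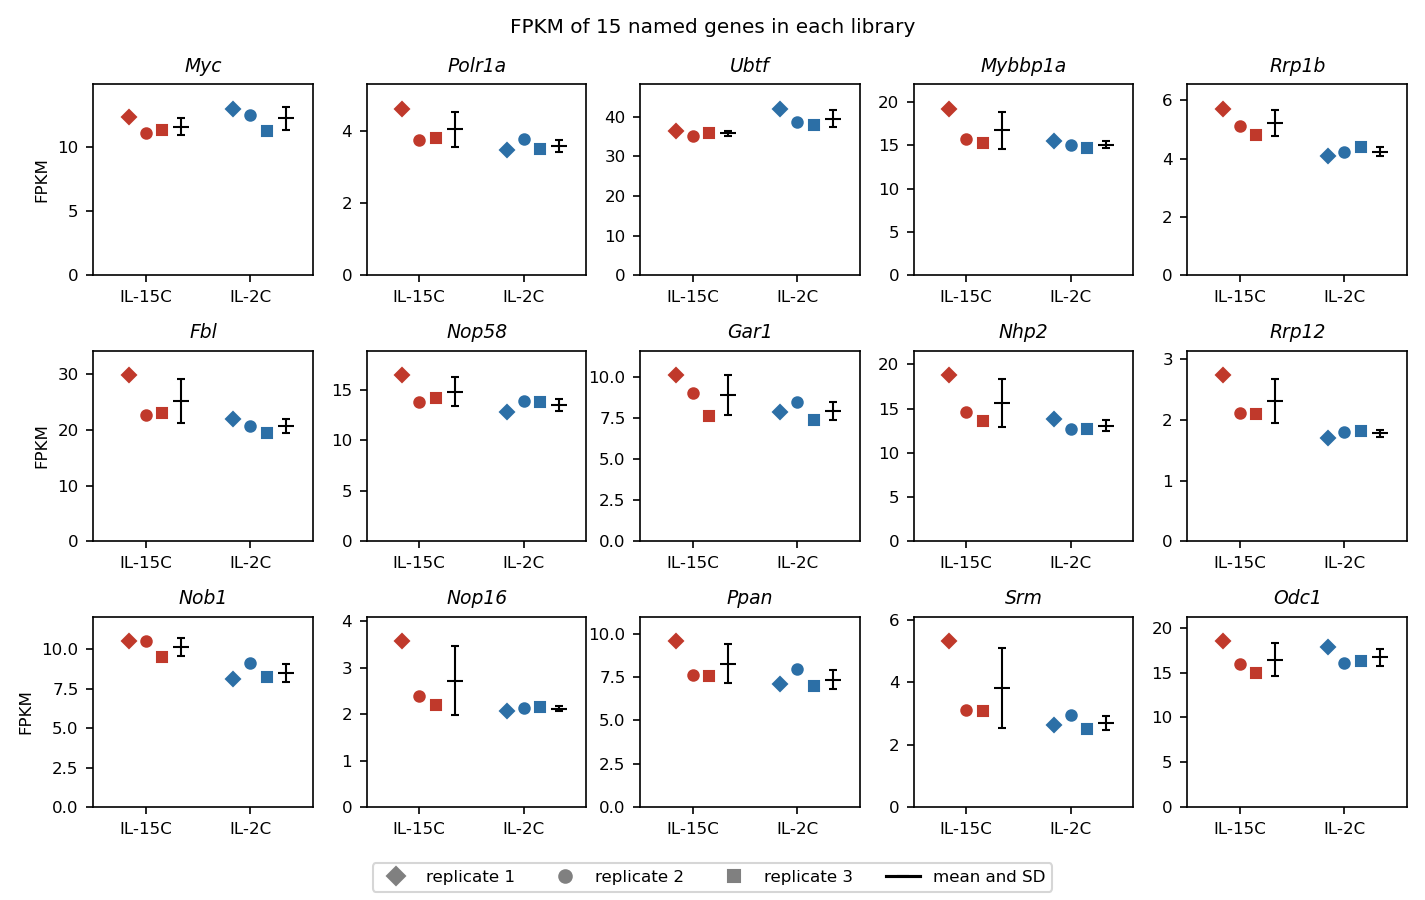
FPKM of 15 genes in each IL-15C and IL-2C library, with diamonds, circles and squares for replicates 1, 2 and 3 and a bar for the mean ± SD of 3 libraries. IL-15C replicate 1 is clear of the other libraries for Srm, Nop16, Fbl, Nhp2 and Rrp12, all 3 IL-15C values lie above IL-2C for Nob1 and Rrp1b, and they lie below it for Ubtf.

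Of the 7 nucleolar proteins none passed the test. The most abundant, Npm1 (a histone chaperone and scaffold of the nucleolus) at a mean of 148 FPKM over the 6 libraries and Ncl (nucleolin) at 39.8 FPKM, had their highest values in IL-2C replicate 1 and log2 changes of -0.03 ± 0.05 and -0.06 ± 0.05, neither past the test. Rrp1b, a nucleolar regulator of rRNA processing, had 5.69, 5.13 and 4.81 FPKM in IL-15C and 4.09, 4.23 and 4.39 FPKM in IL-2C. All 3 IL-15C libraries exceeded all 3 IL-2C libraries, which held for 8 of the 43 genes and 8.15% of tested genes. The log2 change of Rrp1b was 0.24 ± 0.06 and its limma adjusted p 0.0510, just short of a call at 0.05. It was called after scaling each library to a common median (adjusted p = 0.0349), after quantile normalization (0.0292), with array weights (0.0184) and with a pseudocount of 0.1 (0.0488); leaving out each library in turn gave 0.0561 to 0.154. Mybbp1a, a nucleolar MYB-binding protein, had 19.1, 15.8 and 15.3 FPKM in IL-15C and 15.5, 14.99 and 14.7 FPKM in IL-2C. Here only IL-15C replicate 1 was clear of the rest, and the log2 change of 0.14 ± 0.07 (adjusted p = 0.275) became 0.04 ± 0.05 without it. The helicase gene Ddx21 and the snoRNP chaperone gene Nolc1 had log2 changes of 0.11 and 0.08 with all libraries and 0.04 and -0.003 without that one. Gnl3 (nucleostemin) had -0.03 and -0.10.

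Box C/D snoRNPs carry the methyltransferase fibrillarin (Fbl) on the scaffold pair Nop56 and Nop58. Fbl had 29.8, 22.8 and 23.0 FPKM in IL-15C and 22.0, 20.8 and 19.4 FPKM in IL-2C. The groups did not overlap, but IL-15C replicate 1 was far above the other IL-15C libraries, which lay near the highest IL-2C value. The log2 change of Fbl was 0.26 ± 0.09 (limma adjusted p = 0.116) and 0.14 ± 0.06 without that library (adjusted p = 0.138). Nop58 had 16.4, 13.8 and 14.2 FPKM in IL-15C and 12.8, 13.9 and 13.8 FPKM in IL-2C, with a log2 change of 0.12 ± 0.07 (adjusted p = 0.277). Nop56 had 0.04 and Rrp9, a protein of the U3 snoRNP, 0.06; both were negative without IL-15C replicate 1, at -0.05 and -0.02. For all 4 genes the highest library was IL-15C replicate 1.

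Box H/ACA snoRNPs guide pseudouridylation through dyskerin (Dkc1) with Gar1, Nhp2 and Nop10, which are also part of telomerase. Nhp2 had 18.8, 14.7 and 13.6 FPKM in IL-15C and 13.8, 12.7 and 12.7 FPKM in IL-2C, a log2 change of 0.23 ± 0.10 (limma adjusted p = 0.166). Gar1 had 10.1, 8.999 and 7.65 FPKM in IL-15C and 7.88, 8.46 and 7.37 FPKM in IL-2C, a log2 change of 0.15 ± 0.09 (adjusted p = 0.298). Both overlapped between the groups, and both were highest in IL-15C replicate 1. The 4 genes of this particle had 1.21 to 1.33 times as much in that library as in the mean of the other IL-15C libraries. Dkc1 and Nop10 had log2 changes of 0.07 each, and of -0.03 each without it. Among 21 tested genes of snoRNP assembly and the RNA exosome outside the set, limma called 0 in either direction, with 0 higher and 2 lower at an unadjusted p under 0.05. Of the 21, 8 were highest in IL-15C replicate 1, against 25.0% of all tested genes.

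The 11 factors of 40S assembly held the gene that passed the test. Nob1, the endonuclease that makes the final cut at the end of 18S rRNA, had 10.5, 10.5 and 9.51 FPKM in IL-15C and 8.12, 9.12 and 8.22 FPKM in IL-2C. Its means were 10.2 ± 0.568 and 8.49 ± 0.550 FPKM (SD, n = 3 each), a log2 change of 0.23 ± 0.06 with a limma adjusted p of 0.0474. All IL-15C values lay above all IL-2C values, and an exact two-sided permutation test gave 0.1, which is the lower limit for 3 against 3. Nob1 differed from most of the set in that IL-15C replicate 1 did not stand out: it held 1.05 times the mean of the other IL-15C libraries, and the log2 change without it was 0.21 ± 0.06. The call was fragile. It was lost with each library left out in turn (adjusted p of 0.0543 to 0.151), with a rescaling of every library to 1 common sum (0.0533), without the intensity trend (0.0573) and without the filter on low values (0.226). Nob1 lies on chromosome 8 at 107412489 to 107425038, and its locus overlaps that of Mir5098.

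Rrp12, an export and maturation factor, had 2.74, 2.12 and 2.10 FPKM in IL-15C and 1.71, 1.81 and 1.82 FPKM in IL-2C. The groups did not overlap with or without IL-15C replicate 1, and the log2 change was 0.25 ± 0.08 with it (limma adjusted p = 0.0958) and 0.16 ± 0.07 without it (adjusted p = 0.168). Tsr1, a late 40S maturation factor with an E-box shown above, had 7.50, 5.40 and 5.03 FPKM in IL-15C and 4.96, 4.57 and 4.34 FPKM in IL-2C. The log2 change of Tsr1 was 0.30 ± 0.11 with all libraries and 0.14 ± 0.06 without IL-15C replicate 1, and neither passed the test. Pno1, the partner of NOB1 on the maturing subunit, had 6.98 FPKM in IL-15C replicate 1 and 4.23 to 4.99 FPKM in the other libraries, with no gap between the treatments among those. Bysl, Utp20 and Heatr1, found in earlier particles, had log2 changes of 0.20, 0.14 and 0.15, and of 0.07, 0.06 and 0.07 without that library. Ltv1, which leaves the late 40S particle, and Noc4l had 0.04 and 0.08, and Wdr43, of the early processome, -0.01. Dimt1, which dimethylates 18S rRNA, had no value in IL-15C above IL-2C, with 3.82, 3.60 and 3.35 FPKM in IL-15C and 3.88, 4.14 and 3.90 FPKM in IL-2C (log2 change -0.12 ± 0.06, adjusted p = 0.238). In 43 other genes of 40S assembly limma called 0 in either direction, with 1 higher and 6 lower at an unadjusted p under 0.05. Of these, 22 were highest in IL-15C replicate 1, against 25.0% of all tested genes.

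All 10 factors of 60S assembly peaked in IL-15C replicate 1, and none passed the test. Nop16, a nucleolar 60S factor, had 3.56, 2.38 and 2.204 FPKM in IL-15C and 2.07, 2.13 and 2.16 FPKM in IL-2C. The groups did not overlap, yet the log2 change of 0.23 ± 0.12 (limma adjusted p = 0.238) was 0.08 ± 0.07 without IL-15C replicate 1. Ppan, the counterpart of the yeast 60S factor Ssf1, had 9.55, 7.62 and 7.59 FPKM in IL-15C and 7.11, 7.99 and 6.96 FPKM in IL-2C, a log2 change of 0.14 ± 0.08 (adjusted p = 0.308). Mrto4, which holds the place of the P0 stalk protein, and Grwd1, a chaperone of the ribosomal protein RPL3, each had 1.48 times the mean of the other IL-15C libraries in that library, Wdr12 1.32 and Pes1, which forms the PeBoW complex with WDR12 and BOP1, 1.12. Nip7, Noc3l and Wdr12 had log2 changes of -0.07, -0.06 and -0.05, and Rrs1, Noc2l and Pes1 0.09, 0.06 and 0.04. Of 48 other genes of 60S assembly limma called 0 higher and 1 lower, with 1 higher and 3 lower at an unadjusted p under 0.05. For 28 of the 48 the highest library was IL-15C replicate 1, against 25.0% of all tested genes. The called gene was Sbds, which helps to release a late factor from the 60S subunit, at 29.4, 31.3 and 29.8 FPKM in IL-15C and 34.4, 34.6 and 33.6 FPKM in IL-2C (log2 change -0.18 ± 0.04, adjusted p = 0.0396). Without IL-15C replicate 1 its log2 change was -0.16 and the limma call was lost (adjusted p = 0.0609), with 0 of the 48 genes called in either direction.

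Of the polyamine enzymes, spermidine synthase and ornithine decarboxylase, Srm had the largest excess of the set in IL-15C replicate 1. It had 5.31, 3.11 and 3.07 FPKM in IL-15C and 2.63, 2.97 and 2.52 FPKM in IL-2C. IL-15C replicate 1 held 1.72 times the mean of replicates 2 and 3, and the lower bound of its deposited interval, 4.71 FPKM, lay above the highest upper bound of those libraries, 3.56 FPKM. The log2 change of Srm was 0.35 ± 0.15 (limma adjusted p = 0.169) with all libraries and 0.14 ± 0.07 without IL-15C replicate 1 (adjusted p = 0.218), and the groups did not overlap either way. Odc1 had 18.5, 15.9 and 14.96 FPKM in IL-15C and 17.8, 16.03 and 16.3 FPKM in IL-2C, a log2 change of -0.02 ± 0.07 (adjusted p = 0.863). Among 25 tested genes of polyamine and nucleotide synthesis outside the set, limma called 1 higher (Nme2, a nucleoside diphosphate kinase, 0.31 ± 0.07, adjusted p = 0.0367) and 1 lower (Sat1, which acetylates polyamines for breakdown and export, -0.29 ± 0.06, adjusted p = 0.0260). Nme1 lies beside Nme2 and is highly similar in sequence, so that their reads may be shared; it had 0.38 ± 0.12 (adjusted p = 0.0804) with all libraries. Without IL-15C replicate 1, limma called Nme1 higher too (0.22, adjusted p = 0.0376), beside Nme2 (0.23, adjusted p = 0.0340) and, lower, Sat1 (-0.23, adjusted p = 0.0260).

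**Figure D3:**
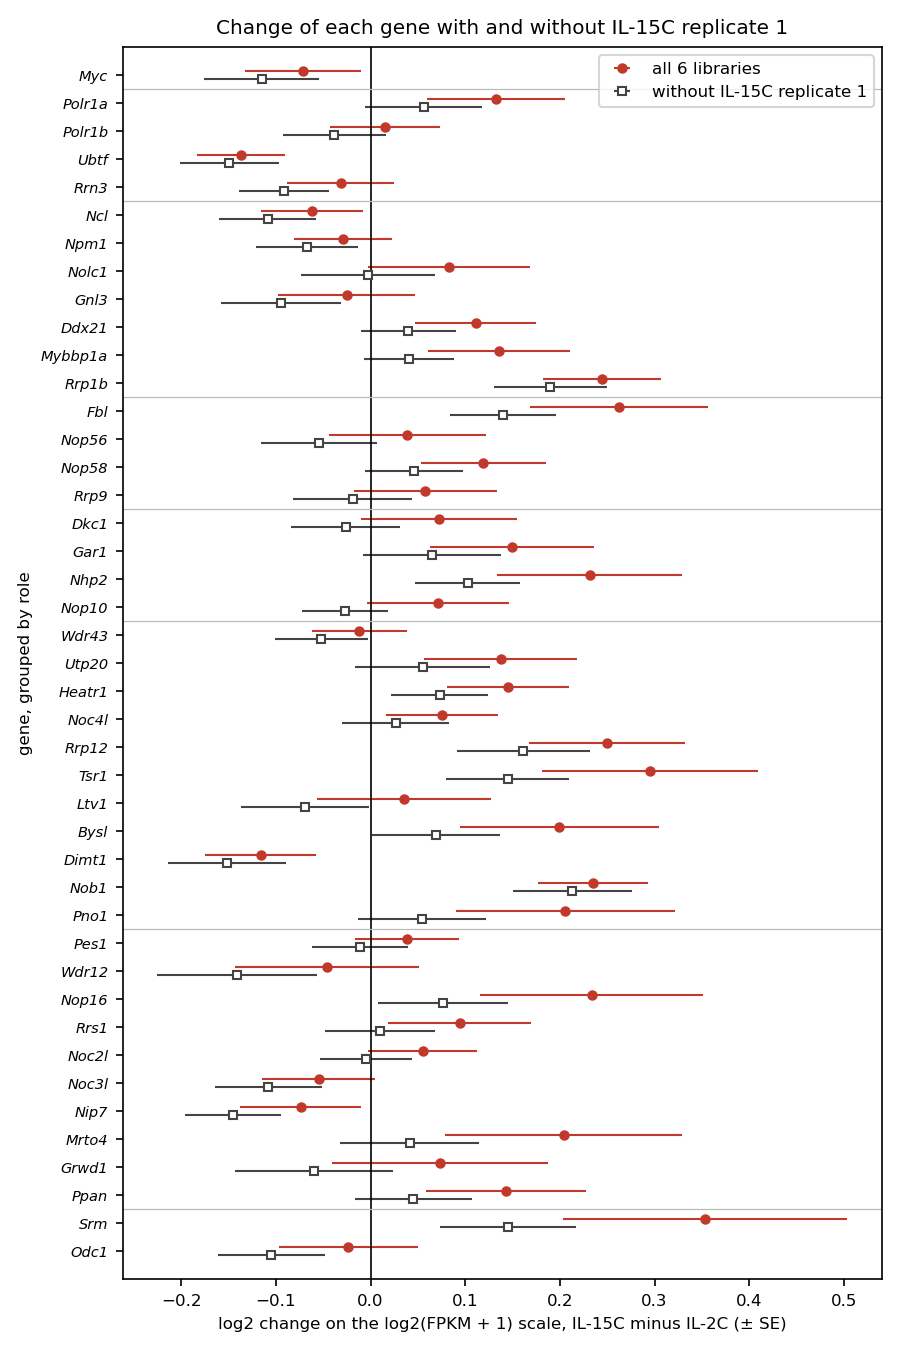
Log2 change of each of the 43 genes, IL-15C minus IL-2C on the log2(FPKM + 1) scale with its standard error, with all 6 libraries (filled circles) and without IL-15C replicate 1 (open squares). Every open square lies to the left of its circle; Nob1, Rrp1b and Ubtf move least among the genes with the smallest p, and Srm, Nop16, Mrto4, Tsr1 and Pno1 move most.

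Leaving out IL-15C replicate 1 lowered the log2 change of all 43 genes. This restates that all 43 had more there than in the mean of IL-15C replicates 2 and 3, as did 64.3% of all tested genes. With all libraries 31 were above 0 (72.1%, against 35.3% of all tested genes), and without replicate 1 of IL-15C 21 were (48.8%, against 30.4%). The 8 genes whose IL-15C values all lay above all IL-2C values numbered 8 again without that library (9.67% of tested genes), while those wholly below went up to 9, against 37.1% of tested genes. Between them, 26 of the 43 genes still overlapped in range. By library, the median deviation of the 43 genes from their own 6-library mean was 0.21, -0.03 and -0.06 on the log2 scale in IL-15C replicates 1 to 3 and -0.02, -0.01 and -0.10 in IL-2C replicates 1 to 3; for all tested genes it was 0.01, -0.03, -0.04, 0.05, 0.02 and -0.01. The lowest of the 6 values lay in IL-15C replicates 1, 2 and 3 for 0, 3 and 11 of the 43 genes (18.4%, 20.0% and 24.1% of all tested genes) and in IL-2C replicates 1, 2 and 3 for 8, 3 and 18 (988 of the 9831 tested genes, 8.91% and 18.5%).

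**Figure D4:**
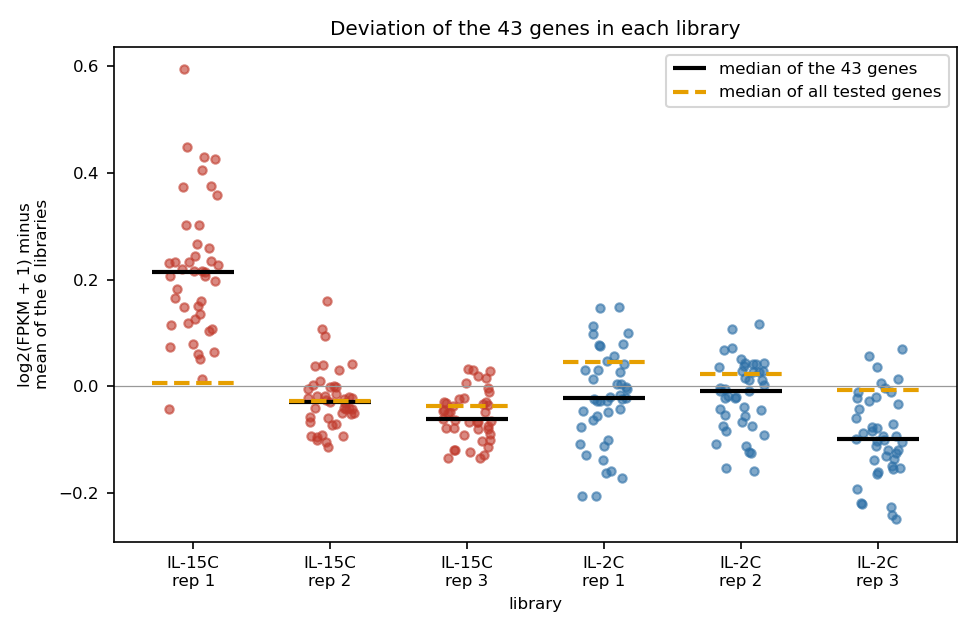
Points give the deviation of each of the 43 genes from its mean over the 6 libraries, on the log2(FPKM + 1) scale, in each IL-15C and IL-2C library; solid bars are the medians of these genes and dashed bars the medians of all 9831 tested genes. The median is 0.21 in IL-15C replicate 1 and between -0.10 and -0.01 in the other libraries.

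Within IL-15C, all 43 genes had more in replicate 1 than in the mean of replicates 2 and 3, against 64.3% of all tested genes, by a median of 1.21 times against 1.03. The excess was at least 1.2-fold for 22 genes (51.2%), against 7.17% of all tested genes. The deposited interval of replicate 1 lay wholly above those of both other IL-15C libraries for 31 genes (11.3% of all tested genes) and above those of all 5 other libraries for 20 (5.36%); these intervals cover the counting and assignment of reads in 1 library, not the spread between mice. Across the 43 genes the excess was larger for those of lower level (Spearman rho of -0.44 between mean FPKM and excess, across genes that share the same libraries), while across all tested genes the rank correlation was -0.03. The set as a whole was of moderate abundance, with a median of 8.41 FPKM and a range of 2.05 (Rrp12) to 148 FPKM (Npm1), beside a median of 12.6 FPKM for all tested genes.

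The wider machinery showed the same library, at a smaller size. Median deviations in IL-15C replicate 1 were 0.08 for the other 40S assembly genes, 0.10 for the other 60S assembly genes and 0.09 for the other snoRNP and exosome genes, against 0.21 for the 43 genes and 0.01 for all tested genes. They were 0.01 for the other RNA polymerase I genes and 0.02 for the MYC network. Proliferation genes (23 listed, 14 tested) had 0.14 there and -0.06 to 0.04 elsewhere. By limma, Top2a, a DNA topoisomerase of dividing cells (log2 change 0.34 ± 0.05, adjusted p = 0.0158), and Tk1 were higher in IL-15C and Mcm7, a subunit of the replicative helicase, lower (-0.27 ± 0.05, adjusted p = 0.0190). Genes of cell handling and heat shock (15 listed, 11 tested) had 0.16, -0.09 and 0.08 in IL-15C replicates 1 to 3 and 0.01, 0.07 and -0.16 in IL-2C replicates 1 to 3. Of these 11, limma called 1 higher in IL-15C, Egr1, and 0 lower. The log2 change of Egr1 was 0.59 ± 0.12 (adjusted p = 0.0309), and 0.42 without IL-15C replicate 1 (adjusted p = 0.0068). The part of either list in the pattern of the 43 genes was not tested.

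**Figure D5:**
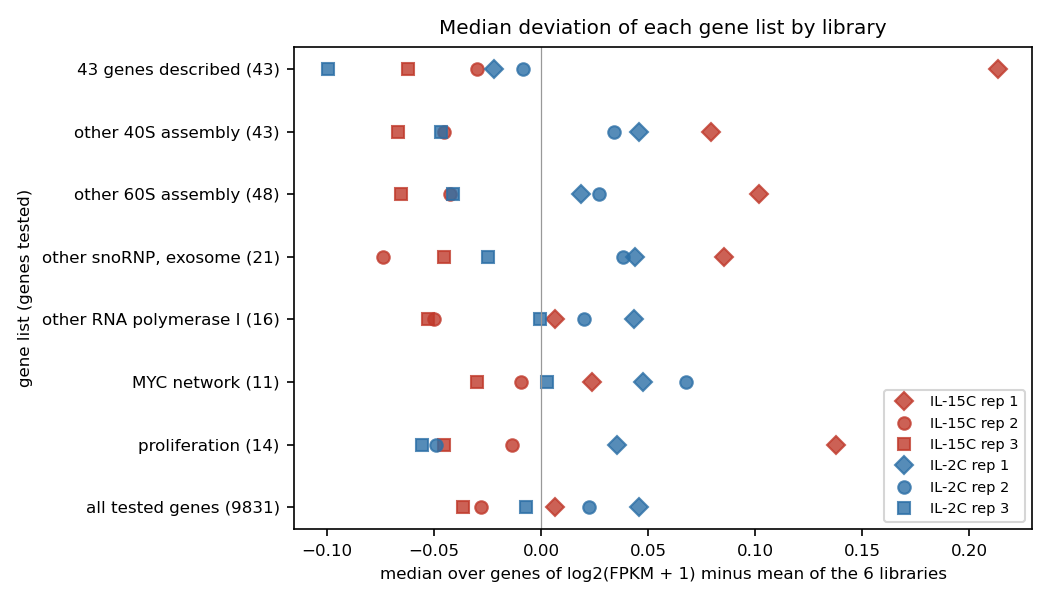
Median deviation from the 6-library mean, on the log2(FPKM + 1) scale, for the 43 genes, 6 other gene lists and all tested genes, with red for IL-15C, blue for IL-2C and the marker shape for the replicate. IL-15C replicate 1 lies at 0.21 for the 43 genes, at 0.08 to 0.10 for the other 40S, 60S and snoRNP lists and at 0.01 for all tested genes.

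The authors' deposited table gives 1 value per treatment, which pools the libraries of a treatment and was scaled separately; there 36 of the 43 genes were higher in IL-15C, with a median ratio of 1.10. Of all 9831 tested genes 4900 were higher in IL-15C in the authors' deposited table, with a median ratio of 1.00. The ratios there ran from 0.932 for Dimt1 to 1.46 for Srm, and in the authors' deposited table Myc had 15.7 FPKM in IL-15C and 16.1 FPKM in IL-2C. The deposited group intervals of IL-15C and IL-2C overlapped for all 43 genes. Among all 9831 tested genes those of 80 did not. For Nob1 these intervals were wide, at 4.55 to 23.0 FPKM around 13.8 in IL-15C and 3.07 to 19.3 FPKM around 11.2 in IL-2C. These values rest on the same libraries and add no independent evidence.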

How the data were processed

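RNA from sorted splenic NK cells was sequenced in 6 libraries, 3 per treatment. Cufflinks 2.2.1, TopHat2 2.0.13 and the mm10 build are named in the submitters' processing notes; which annotation was used is not stated. The authors deposited FPKM values with interval bounds, 1 table per library, and a Cuffdiff table of group FPKM values, per the file headers.

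For 280 genes with several rows the rows were added up, and 10 genes with a failed estimate were dropped. Treating the deposited bounds as 2 Poisson SD either side of the value gives implied fragments: 145 (Nop16) to 15821 (Ncl) for the 43 genes. Genes with reads that several transcripts share have wider intervals and therefore fewer implied fragments. Separate mice are not named in any label; p-values therefore cover the spread among these libraries, possibly only a technical one.

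The test was limma 3.58.1 (R 4.3.3) with an intensity trend on log2(FPKM + 1), two-sided, over the 9831 genes with a mean of at least 1 FPKM, adjusted by Benjamini-Hochberg over all of them with a threshold of 0.05; it was tested on simulated data. This scale understates changes of low genes. Changes are IL-15C minus IL-2C. Values are given in every library for Myc, each called gene and the 2 genes of each role with the smallest p, and for Tsr1 and Dimt1, chosen after their values were seen. From other lists up to 3 genes with the smallest adjusted p were named. The 43 genes and all lists were chosen with earlier results of these data known. The loci of 12 of the 43 genes overlap another locus in the files (snoRNAs or neighbouring genes), so reads may be shared; the strand setting of the counting is not stated.

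Alternatives were pseudocounts of 0.1 and 5, filtering at a mean of 5 FPKM or not at all, median scaling, TPM rescaling, quantile normalization, no trend, array weights, a replicate block and leaving out each library. The count of genes highest in IL-15C replicate 1 under 3 scalings was added after seeing the data. Positions come from the deposited files (mm10) and are 1-based; with 1 added, 62.0% of 22811 starts equalled RefSeq's, and 3.21% as deposited. Sequences are those of the RefSeq promoter table for GRCm38. Python 3.11.15, pandas 2.3.3, numpy 2.4.6 and matplotlib 3.10.9 were used.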

Additional observations from a re-analysis of the deposited data

How the results depend on the processing

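The count of the 43 genes called higher in IL-15C was 1 with the main settings. It was 2 with a pseudocount of 0.1, median scaling, quantile normalization or array weights, 0 with no filter, TPM rescaling or no intensity trend, and 0 to 0 with each library left out in turn. With array weights, 2 genes (Ubtf and Dimt1) were called lower, against 0 with the main settings. That fit gave IL-15C replicate 1 the lowest weight, 0.403, and IL-2C replicates 1 and 3 weights of 0.563 and 0.645. The remaining libraries had 1.46 to 2.41. The share of all tested genes called is given only for the main fit and that without IL-15C replicate 1. A changed count under another setting is therefore no result about the 43 genes. The median log2 change of the 43 genes was 0.08, beside -0.04 for all tested genes. It ranged over -0.003 to 0.13 with each library left out, lowest without IL-15C replicate 1, beside -0.05 to -0.03 for all tested genes. With array weights it was 0.02, beside -0.05. With median scaling and quantile normalization it was 0.12 each, beside 0.0005 and -0.007 for all tested genes. The change of Myc stayed below 0 and outside the threshold under every alternative run. The 38 genes highest in IL-15C replicate 1 became 39 after median scaling, 37 after TPM rescaling and 37 after quantile normalization. Across genes, the correlations of same-numbered deviations were -0.03, -0.16 and -0.02. With 3 libraries per treatment these values cannot exclude that libraries of the same number were paired. With the replicate block the count called higher was 1 and the median 0.08. Single genes moved both ways in that fit: the limma adjusted p of Fbl was 0.0515, against 0.116 with the main settings, and that of Rrp1b 0.0772, against 0.0510. For Odc1, the log2 change of -0.02 with the main settings, never called, changed sign to 0.0192 with median scaling and 0.0152 with quantile normalization; with single libraries left out it ranged over -0.105 to 0.0381, above 0 when either IL-15C replicate 3 or the IL-2C library of replicate 1 was omitted (0.0381 and 0.0205). Of 219 other values of named genes, these 4 reversed and 201 kept their direction and their side of the threshold; the 9 that lost the call were those of Nob1, and the 5 that gained it were 4 of Rrp1b and 1 of Ubtf. With 3 libraries per treatment, and 145 implied fragments for the lowest value, small differences could not be detected.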
